A study of Mus musculus with 8 samples.

Results

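Contractile and mesenchymal transcripts were described in pancreatic islets of wild type mice and of mice lacking the function of 1 gene, labelled knock-out. The genes were Acta2, Tagln, Cnn1, Myh11, Myl9, Tpm2, Des, Vim, Thy1 and Pdgfrb, and every probe set annotated to them under a current or older symbol was taken. They were represented by 13 of 24965 probe sets, 11 of 12488 on the MG-U74A array and 2 of 12477 on MG-U74B, which are Affymetrix mouse oligonucleotide arrays. Total RNA of each genotype was measured in 2 replicates on each array type, 8 arrays in all, and the labels call these replicates biological. Strain, age, sex and the way the gene was inactivated are not given in the sources used here. Nothing in the labels ties an array to an animal, so the replicate spread behind the p-values could be technical in part.

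Smooth muscle cells and pericytes, together called mural cells, wrap blood vessels and set their width by contraction. Stellate cells of the pancreas store vitamin A at rest and, when activated, take on a contractile, matrix-making state in which they make smooth muscle actin. Contraction rests on actin filaments sliding on myosin, with calponin, transgelin and tropomyosin bound to the actin and desmin or vimentin filaments holding the cell's shape. Many of these genes are switched on by serum response factor, which binds a DNA sequence called the CArG box, beside the cofactor myocardin.

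Promoter windows are printed, where available, for members that rose or that carry a CArG box, to show where this element lies. RefSeq windows of 300 bases, from 250 bases before to 50 after the gene start in assembly GRCm38.p6, were matched by symbol for 6 of the 10 members. No window was matched for Tagln, Thy1 and Pdgfrb, which rose, or for Myh11, so these were not searched. Windows on 1 chromosome were left out of this match, though not out of the counts over all windows. Capitals mark matches to the CArG box with at most 1 mismatch, searched on both strands, which read the same positions. The windows are chr19:34255324-34255623 on the minus strand for Acta2, chr9:22099003-22099302 on the plus strand for Cnn1, chr1:75360042-75360341 on the plus strand for Des and chr2:156775214-156775513 on the plus strand for Myl9.
Acta2: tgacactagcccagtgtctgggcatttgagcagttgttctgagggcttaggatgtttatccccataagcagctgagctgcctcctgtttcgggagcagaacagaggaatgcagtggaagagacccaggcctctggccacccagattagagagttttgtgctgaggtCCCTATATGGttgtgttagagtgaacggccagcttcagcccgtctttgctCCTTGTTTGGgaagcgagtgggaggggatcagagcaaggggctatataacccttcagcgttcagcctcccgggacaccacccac
Cnn1: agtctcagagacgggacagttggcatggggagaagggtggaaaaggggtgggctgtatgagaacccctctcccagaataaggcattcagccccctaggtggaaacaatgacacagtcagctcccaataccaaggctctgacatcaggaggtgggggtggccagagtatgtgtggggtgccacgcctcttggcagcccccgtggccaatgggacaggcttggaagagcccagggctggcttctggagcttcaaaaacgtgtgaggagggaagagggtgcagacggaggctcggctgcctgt
Des: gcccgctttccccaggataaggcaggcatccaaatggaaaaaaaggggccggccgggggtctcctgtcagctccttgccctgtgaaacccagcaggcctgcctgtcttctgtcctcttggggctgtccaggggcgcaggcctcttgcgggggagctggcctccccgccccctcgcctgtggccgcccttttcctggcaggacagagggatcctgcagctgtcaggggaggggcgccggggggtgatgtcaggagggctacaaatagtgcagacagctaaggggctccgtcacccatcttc
Myl9: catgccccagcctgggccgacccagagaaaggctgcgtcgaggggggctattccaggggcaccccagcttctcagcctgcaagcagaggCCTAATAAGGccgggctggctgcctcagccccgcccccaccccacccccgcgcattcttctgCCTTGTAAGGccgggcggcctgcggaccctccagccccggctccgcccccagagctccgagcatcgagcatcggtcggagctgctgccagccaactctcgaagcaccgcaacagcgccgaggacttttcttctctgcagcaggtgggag

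The Acta2 window held 2 matches with 1 mismatch, CCCTATATGG beginning 84 bases and CCTTGTTTGG beginning 34 bases before the start. The Myl9 window held an exact match, CCTAATAAGG, beginning 161 bases before the start, and CCTTGTAAGG with 1 mismatch 99 bases before it. An exact match was found in 1.63% of 32851 windows of this length and a match with at most 1 mismatch in 21.1% of them. The windows of Cnn1, Des, Tpm2 and Vim held no such match. The Vim window held TATAAA on the gene strand, 32 bases before the start, as did 8.32% of all windows. A match is a description of the sequence and no evidence of binding.

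The labelled tissue carried its defining transcripts. The 6 islet endocrine genes measured, among them Ins2, Gcg and Sst, summed to 120008 and 120609 in wild type and to 86437 and 78301 in knock-out on MG-U74A. All 6 fell in knock-out (limma, adjusted p under 0.05), as did 29.0% of all probe sets tested there. Chga went from 6041 and 6132 in wild type to 1140 and 1029 in knock-out. Gapdh signal at the 3' end over that at the 5' end, a control that is higher for less complete RNA, was 3.15 and 3.22 in wild type and 0.949 and 0.937 in knock-out on MG-U74A. For beta actin it was 1.47 and 1.45 against 1.16 and 1.12. Genotype and RNA completeness differ on the same arrays and cannot be told apart.

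Acta2 and Cnn1 were listed below 0 in wild type islets and were measured in knock-out islets, while Tagln, Des and Pdgfrb were measured in both and were higher in knock-out. Of the 8 member probe sets tested on MG-U74A, 6 rose, those of Acta2, Cnn1, Thy1, Tagln, Pdgfrb and Des. None fell (limma, adjusted p under 0.05; 0 fell also at an unadjusted p under 0.05), and Tpm2 and Vim did not pass. Over all 7517 probe sets tested on that array type 52.9% passed, 23.9% rose and 29.0% fell, and both knock-out arrays lay above both wild type arrays for 35.2%. Acta2, Cnn1 and Thy1 passed the filter on low values, a mean over the 4 arrays of at least 62.5, only through the knock-out arrays and therefore had to differ. Of the 5 members whose wild type mean alone passed it, Tagln, Des and Pdgfrb rose, with a median log2 change over the 5 of 1.03 against -0.09 over all tested probe sets. The latter were filtered on the mean over the 4 arrays and not on the wild type mean alone, so the sets are not fully alike. In RNA from whole islets, more cells of a type and more RNA per cell cannot be told apart.

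**Figure D1:**
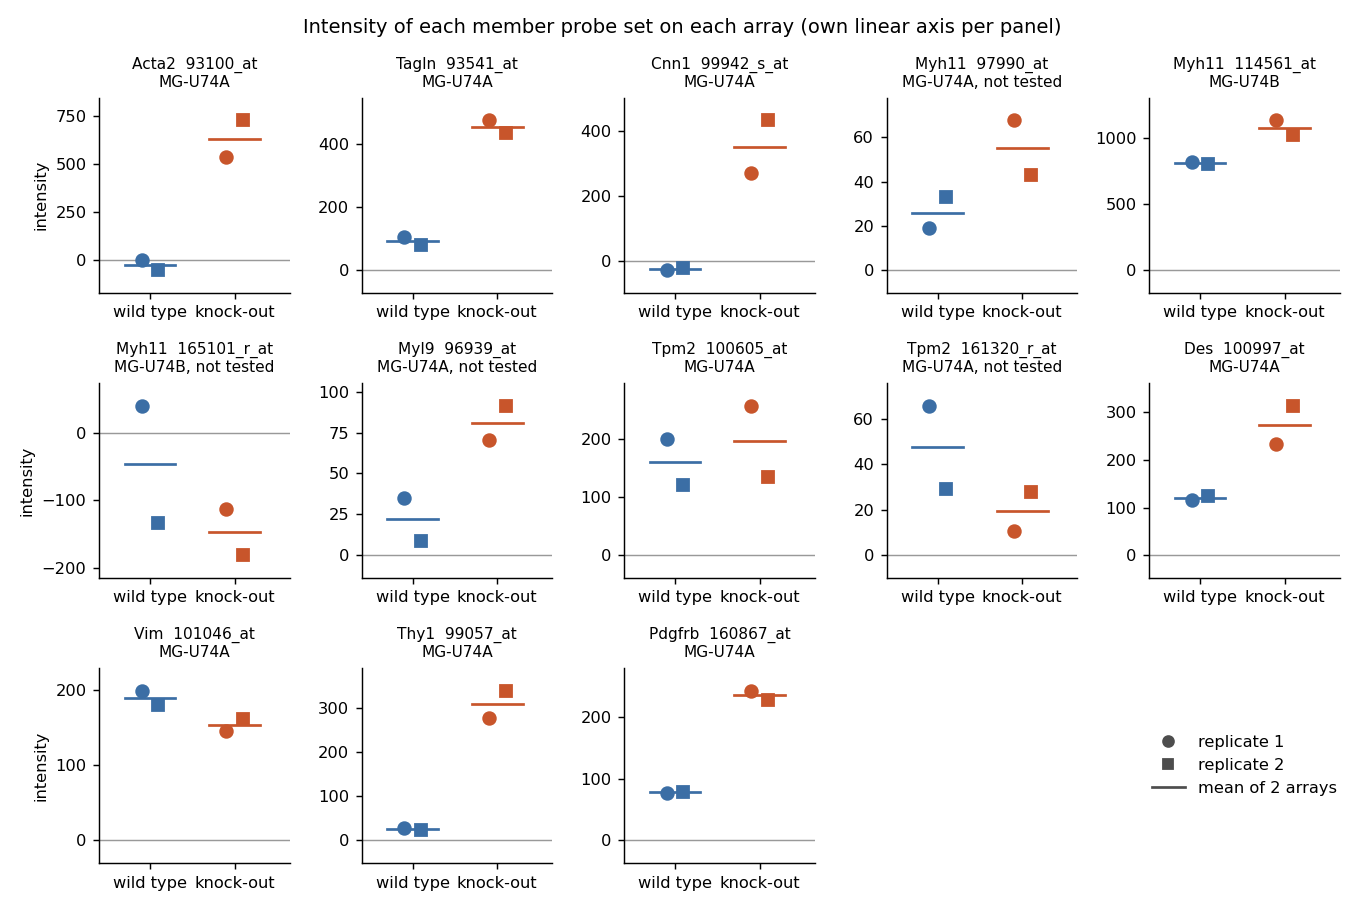
Scaled intensity (vertical, linear, an axis of its own in each panel) of the 13 member probe sets on each array, wild type in blue and knock-out in orange, circles for replicate 1 and squares for replicate 2, with lines at the mean of 2 arrays. The knock-out arrays of Acta2, Tagln, Cnn1, Des, Thy1 and Pdgfrb sit above both wild type arrays, and those of Tpm2 on MG-U74A probe set 100605_at overlap them.

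Acta2 encodes smooth muscle alpha actin, the main actin of contractile vessel wall and activated stellate cells. Its probe set 93100_at gave intensities of -3.20 and -55.4 in wild type and 536 and 727 in knock-out. Both wild type arrays were thus at or below 0 and both knock-out arrays were far above them. The log2 change was 4.70 ± 0.21 (SE, adjusted p = 3.65e-04, limma), on a scale of log2 of the intensity, with values below 0 set to 0, plus 25. Because wild type was listed below 0, no ratio is given, and the change depended on the constant added, from 3.75 to 5.99 over the alternatives. The fit could take no spread from the wild type pair, since both of its values were set to 0.

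Cnn1 encodes calponin, which binds actin and restrains the myosin motor in smooth muscle. On probe set 99942_s_at it read -27.9 and -20.6 in wild type and 271 and 433 in knock-out, and the groups did not overlap. The log2 change was 3.88 ± 0.28 (adjusted p = 0.00110, limma), from 2.98 to 5.14 over the alternatives, with no spread in the wild type pair after values below 0 were set to 0. Acta2 and Cnn1 were 2 of 41 probe sets on MG-U74A (0.545% of those tested) that rose from a wild type pair at or below 0.

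Tagln encodes transgelin, also called SM22 alpha, an actin-bundling protein of smooth muscle. It was measured in both genotypes, at 106 and 79.9 in wild type and 476 and 434 in knock-out. The knock-out mean of 455 ± 29.4 (SD, n = 2) was 4.89 times the wild type mean of 92.9 ± 18.5, and the groups lay far apart. The log2 change was 2.03 ± 0.15 (adjusted p = 0.00120, limma).

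Myl9, the regulatory light chain of smooth muscle myosin, read 35.3 and 8.90 in wild type and 70.6 and 91.5 in knock-out. The knock-out arrays were the higher ones, but the mean over the 4 arrays was 51.6, below the filter, so Myl9 was not tested. With no filter its log2 change was 1.22 ± 0.39 (adjusted p = 0.138, limma).

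Myh11 encodes the heavy chain of smooth muscle myosin, a motor found in few cells other than smooth muscle, and had 3 probe sets. The brightest, 114561_at on MG-U74B, read 821 and 803 in wild type and 1135 and 1023 in knock-out. Both knock-out arrays lay above both wild type arrays, as for 36.2% of the 7863 probe sets tested on MG-U74B. The log2 change of 0.40 ± 0.12 did not pass the threshold (adjusted p = 0.0939, limma). Its unadjusted p was 0.0250, and 17.5% of the probe sets of that array type passed after adjustment, 8.61% as higher and 8.9% as lower. The MG-U74A probe set 97990_at read 19.1 and 32.9 in wild type and 67.7 and 43.0 in knock-out, below the filter. The other MG-U74B probe set, 165101_r_at, read 40.3 and -133.6 in wild type and -112.4 and -181.4 in knock-out, so it showed no signal above background on 3 of the 4 arrays. The level of a probe set is not comparable with that of another, so these 3 give separate readings of the gene.

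Tpm2 encodes beta tropomyosin, which lies along the actin filament of smooth and slow skeletal muscle. Probe set 100605_at read 199 and 120 in wild type and 257 and 134 in knock-out. The genotypes overlapped, and the log2 change of 0.23 ± 0.38 did not pass the threshold (adjusted p = 0.641, limma). It turned to -0.08 without wild type replicate 2 and to -0.19 without knock-out replicate 1. The other probe set, 161320_r_at, was below the filter, at 65.7 and 28.9 in wild type and 10.6 and 27.9 in knock-out.

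**Figure D2:**
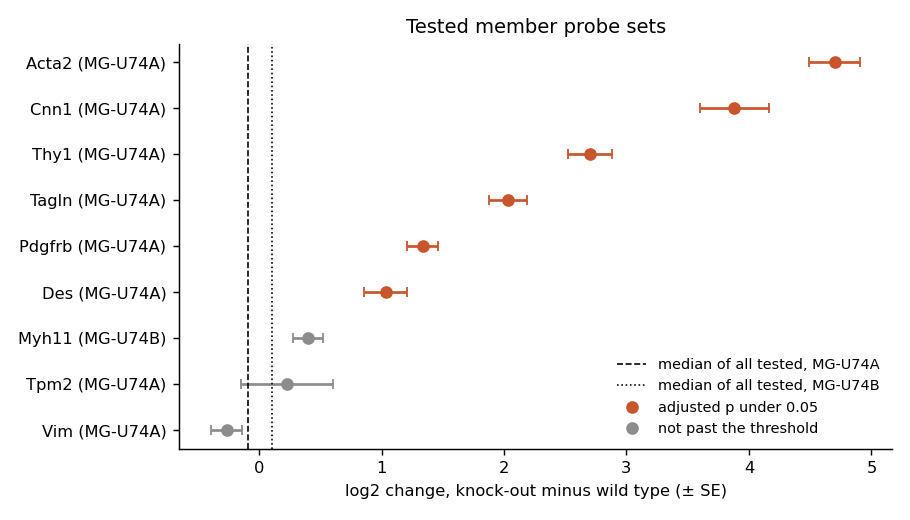
Log2 change, knock-out minus wild type, with its standard error (horizontal) of the 9 tested member probe sets, orange where the adjusted p was under 0.05 and grey where it was not, with the median of all tested probe sets of each array type as vertical lines. Changes run from 4.70 for Acta2 to -0.26 for Vim, and for all tested probe sets the median was -0.09 (MG-U74A) or 0.11 (MG-U74B).

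Des encodes desmin, the intermediate filament of muscle and of many pericytes and stellate cells. It read 116 and 124 in wild type and 234 and 314 in knock-out, with no overlap. The mean was 2.29 times higher in knock-out, and the log2 change of 1.03 ± 0.17 passed the threshold (adjusted p = 0.0106, limma). The call ended without wild type replicate 1 (0.99 ± 0.25, adjusted p = 0.0554).

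Vim encodes vimentin, the intermediate filament of fibroblasts, stellate cells, endothelium and white blood cells. It went the other way in level, at 199 and 180 in wild type and 146 and 161 in knock-out, with both knock-out arrays below both wild type arrays, as for 43.9% of the tested probe sets. The log2 change of -0.26 ± 0.12 did not pass the threshold (adjusted p = 0.149, limma), and no alternative brought it past. Vim had this probe set only, 101046_at, so no other reading of the gene was used here.

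Thy1 encodes a small glycoprotein anchored in the outer membrane of fibroblasts, neurons and mouse T cells. It read 28.5 and 23.7 in wild type and 278 and 339 in knock-out, and the groups lay far apart. The means were 26.1 ± 3.39 in wild type and 309 ± 43.3 in knock-out (SD, n = 2). Wild type lay in the dim range of the array, above 30.4% of its probe sets, so no ratio is given. The log2 change was 2.70 ± 0.18 (adjusted p = 8.72e-04, limma), from 2.23 to 3.52 over the alternatives. T cell markers on the same arrays differed too. Their summed intensity was 608 to 706 in wild type and 1032 to 1092 in knock-out over 8 of 10 listed genes on MG-U74A. Of these, Cd3d read 22.9 and -0.90 in wild type and 205 and 217 in knock-out and rose (2.77 ± 0.38, adjusted p = 0.00603, limma), having passed the filter only through the knock-out arrays. Cd4 and Zap70 did not pass the threshold. Cd8a (73.1 and 62.2 in knock-out), Cd8b1 (66.1 and 62.8 in knock-out) and Cd3g were below the filter, with Cd8a and Cd8b1 higher on both knock-out arrays. Cd3e and Cd5 were at or below 0 on all 4 arrays, although the MG-U74B probe set of Cd3e read 136 and 39.9 in wild type and 42.5 and 167 in knock-out and did not pass. The part of T cells in the Thy1 value was not tested.

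Pdgfrb encodes the receptor through which PDGF-B from endothelium recruits pericytes, and marks pericytes and fibroblasts. It read 77.2 and 79.3 in wild type and 243 and 228 in knock-out. The replicates lay close together and the genotypes far apart. The knock-out mean was 3.01 times the wild type mean, and the log2 change was 1.34 ± 0.13 (adjusted p = 0.00224, limma). The ligand gene Pdgfb, named for this role after its values were seen, read 121 and 116 in wild type and 118 and 138 in knock-out on MG-U74A (0.09 ± 0.15, adjusted p = 0.640). On MG-U74B it read 296 and 248 in wild type and 538 and 523 in knock-out and rose (0.91 ± 0.19, adjusted p = 0.0402), a call lost when any 1 array was left out, with no filter (adjusted p = 0.0629), with no variance trend (0.0697) and with the replicate number as a block (0.0588).

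Other cell types moved on the same arrays. The 10 fibroblast and stellate matrix genes listed summed to 8586 to 8671 in wild type and 23944 to 24471 in knock-out on MG-U74A, where 8 rose and Col1a2 and Fbln1 fell. Endothelial genes summed to 2261 to 2304 and 2668 to 2684, with 5 of 8 that rose and 1, Emcn, that fell. The 8 macrophage and dendritic cell genes summed to 1674 to 1708 in wild type and 8299 to 8449 in knock-out, and 6 of 6 tested rose. Of this list, Adgre1 and Itgam were below the filter. Adgre1 read 17.1 and 17.0 in wild type and -3.20 and 12.9 in knock-out, and Itgam -46.4 and -33.6 in wild type and 73.9 and 23.0 in knock-out. B cell genes summed to 3966 to 3990 and 15769 to 16938, and 4 of 5 tested rose. Acinar genes summed to 34935 to 35165 and 4208 to 4679, and 5 of 5 tested fell. Over all probe sets tested on MG-U74A, 23.9% rose and 29.0% fell. Icam2, Ptprc and Cd79a passed the filter only through the knock-out arrays, and Clps only through the wild type arrays, so these genes had to differ. The part of these cell types in the members' values was not tested.

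Skeletal muscle shares Des and Tpm2 with smooth muscle. Its 9 listed genes summed to 670 to 832 in wild type and 537 to 580 in knock-out, none of 4 tested passed (limma, adjusted p under 0.05, with Myh4 at an unadjusted p of 0.0317 and lower in knock-out), and Mylpf and Tnni2 were at or below 0 in wild type. Mylpf read 124 and 70.7 in knock-out and Acta1, skeletal alpha actin, 122 and 55.9 in wild type and 73.9 and 65.5 in knock-out. The 5 nerve and Schwann cell genes measured summed to 1399 to 1475 and 1496 to 1598, with 1 of 3 tested that rose and 1 that fell. The sums of 3 mesothelial genes overlapped, at 196 to 358 and 260 to 330.

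**Figure D3:**
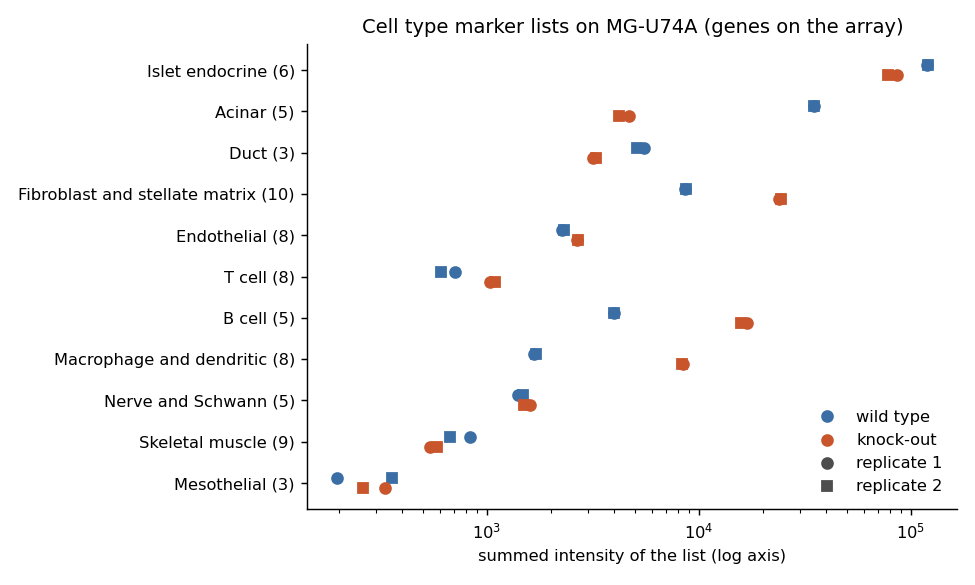
Summed intensity of each cell type marker list on MG-U74A (horizontal, log axis; values below 0 counted as 0; number of genes on the array in brackets) for the wild type arrays in blue and the knock-out arrays in orange. The fibroblast and stellate matrix list moved from 8586 to 8671 in wild type to 23944 to 24471 in knock-out, and the skeletal muscle list from 670 to 832 to 537 to 580.

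A further list of 100 contractile and stellate genes was read beside the members. The list was chosen with earlier results of these data known, so its shares are a description and no independent support for the members. On MG-U74A 55 were tested, of which 24 rose (43.6%, against 23.9% of all probe sets) and 7 fell (12.7%, against 29.0%), with a median log2 change of 0.19 against -0.09. On MG-U74B 35 were tested, of which 9 rose (25.7%, against 8.61%) and 1 fell (2.86%, against 8.9%), with a median of 0.42 against 0.11. The MG-U74A count fell to 14 rises and 5 falls without wild type replicate 1 and to 14 rises and 4 falls without wild type replicate 2. On MG-U74B none of the list passed without either wild type array (limma, 15 and 13 at an unadjusted p under 0.05), 2 passed without knock-out replicate 1 (18 unadjusted), 7 without knock-out replicate 2 and 5 with no filter.

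With no filter the calls of Cald1, Tns1, Agtr1a and Rgs4 on MG-U74B were among those lost (adjusted p = 0.0709, 0.118, 0.0854 and 0.0761, limma), and with no variance trend those of Cald1 (0.0532) and Tns1 (0.0691). Each MG-U74B rise or fall given below for a single gene needed both wild type arrays.

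Among actin filaments and their binding proteins, 8 of 22 rose and 3 fell on MG-U74A. Csrp1 (2.31 ± 0.06) and Csrp2 (1.94 ± 0.24), LIM proteins of smooth muscle, rose, with Csrp1 going from 213 and 221 to 1191 and 1148. Pdlim1, another LIM protein on the actin cytoskeleton, rose by 2.27 ± 0.06, and the non-muscle calponin Cnn2 by 2.08 ± 0.13. The 3 that fell were Lpp (-0.66 ± 0.09), the cardiac actin Actc1 (-0.42 ± 0.09) and Svil (-0.29 ± 0.05). The Actc1 probe set is of a type shared by related transcripts, so its value may not be that of cardiac actin alone. The calls of Actc1 (adjusted p = 0.0933 and 0.0828) and Svil (0.0578 and 0.0986) were lost without wild type replicate 1 and without wild type replicate 2, and that of Actc1 with no filter (0.0846). Actg2, the gamma actin of gut smooth muscle, read 3936 and 4080 in wild type and 4355 and 3752 in knock-out on a probe set of a type shared by related transcripts, and did not pass (0.01 ± 0.08, adjusted p = 0.910). On MG-U74B 2 of 7 rose, the actin and myosin crosslinker Cald1 from 1291 and 1730 to 3808 and 3860 (1.34 ± 0.16) and the adhesion protein Tns1 (1.49 ± 0.26).

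Among myosin and its regulation, 5 of 8 rose and 2 fell on MG-U74A. Mylk, the kinase that switches on smooth muscle myosin by phosphorylating its light chain, read 365 and 351 in wild type and 725 and 795 in knock-out and rose by 1.03 ± 0.07. The small GTPase gene Rhoc rose by 1.58 ± 0.06. Ppp1cb, the phosphatase subunit that reverses the kinase's step, fell by 1.08 ± 0.06, and the kinase Rock1 fell by 0.90 ± 0.14, a call lost without wild type replicate 2 (adjusted p = 0.0558, limma). On MG-U74B 1 of 7 rose, Pln, the calcium pump regulator phospholamban of cardiac and smooth muscle. Pln read -20.4 and -2.90 in wild type and 256 and 293 in knock-out (3.58 ± 0.48, adjusted p = 0.0140, limma), again from a level listed below 0, as for 0.547% of the probe sets tested on MG-U74B. It passed the filter only through the knock-out arrays and therefore had to differ, and its wild type pair had no spread after values below 0 were set to 0. The MG-U74B probe set of Mylk, at 238 and 185 in wild type and 47.9 and -84.4 in knock-out, lay below in both knock-out arrays, as for 28.8% of the probe sets there, and did not pass (-2.46 ± 0.67, adjusted p = 0.0711). This Mylk probe set passed the filter only through the wild type arrays and therefore had to differ.

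The group listed as serum response factor and its cofactors gave 1 rise of 2 tested on MG-U74A and 1 of 4 on MG-U74B. Both were Mef2c, a muscle transcription factor listed with this group but neither serum response factor nor its cofactor. The other genes tested did not pass: Mrtfa on MG-U74A (adjusted p = 0.511, limma), and Mrtfb (0.955), Elk1 (0.212) and Srf on MG-U74B. Mef2c rose by 0.70 ± 0.16 on MG-U74A and by 1.27 ± 0.21 on MG-U74B, from 179 and 198 to 482 and 495 on the latter. The MG-U74A call was lost without wild type replicate 1 (adjusted p = 0.134) or replicate 2 (adjusted p = 0.111), with no filter (adjusted p = 0.0509) and with the replicate number as a block (adjusted p = 0.0660). Srf itself read 532 and 289 in wild type and 477 and 600 in knock-out and did not pass (0.42 ± 0.33, adjusted p = 0.405). Myocd, the smooth muscle cofactor myocardin, read 11.4 and 39.1 in wild type and 37.8 and 32.3 in knock-out and was below the filter.

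Of 8 intermediate filament and adhesion genes on MG-U74A, 3 rose and none fell (limma, 0 also at an unadjusted p under 0.05). They were Nes (nestin, 0.49 ± 0.08), the integrin Itgb1 (0.38 ± 0.06) and Vcl (vinculin, 0.32 ± 0.07). All 3 calls were lost without wild type replicate 1 (adjusted p = 0.0810, 0.0577 and 0.130) and without wild type replicate 2 (0.0861, 0.0550 and 0.111). Vcl also lost it with no filter (0.0646) and with no variance trend (0.0533). On MG-U74B none of 3 passed (limma), and Sgcb had an unadjusted p of 0.0134.

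Of 15 mural and stellate cell surface, ligand and matrix genes, 7 rose and 2 fell on MG-U74A. Mcam, an adhesion molecule of pericytes and endothelium, rose from 104 and 117 to 391 and 446 (1.71 ± 0.12). Abcc9 and Kcnj8 encode the subunits of the potassium channel of mural cells. Abcc9 rose by 1.39 ± 0.31 on MG-U74A and by 1.44 ± 0.19 on MG-U74B, and Kcnj8, named for this partnership after its values were seen, by 0.89 ± 0.20. On MG-U74A Abcc9 had a wild type mean of 60.4, so it passed the filter only through the knock-out arrays and therefore had to differ. Rgs5, a pericyte regulator of G protein signalling, rose by 1.04 ± 0.30 on MG-U74A (adjusted p = 0.0482) and by 1.40 ± 0.22 on MG-U74B. Anpep (-1.14 ± 0.14), a peptidase of pericytes and epithelia, and Pdgfa (-0.64 ± 0.07) fell. Some of these MG-U74A calls were lost under alternatives. Rgs5 lost its call without wild type replicate 1 (adjusted p = 0.129) or 2 (0.148), with no filter (0.151) and with no variance trend (0.0669), and Abcc9 without knock-out replicate 1 (0.102) or 2 (0.0764) and with no filter (0.0967). Kcnj8 lost its call without wild type replicate 1 (0.0882) or 2 (0.115) and with no filter (0.0806). On MG-U74B 5 of 14 rose and 1 fell. The angiotensin receptor gene Agtr1a went from 81.1 and 113 to 662 and 404 (2.17 ± 0.35, adjusted p = 0.0213), while Rgs4 fell from 4003 and 4630 to 947 and 1443 (-1.86 ± 0.22). Other genes of the group were not called. Cspg4 was below 0 on every MG-U74B array and was not tested. Cd248 did not pass there (0.32 ± 0.15, adjusted p = 0.206, limma). Ednrb was lower in knock-out and did not pass on MG-U74A (-0.32 ± 0.20, adjusted p = 0.237) or MG-U74B (-0.53 ± 0.13, adjusted p = 0.0573).

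**Figure D4:**
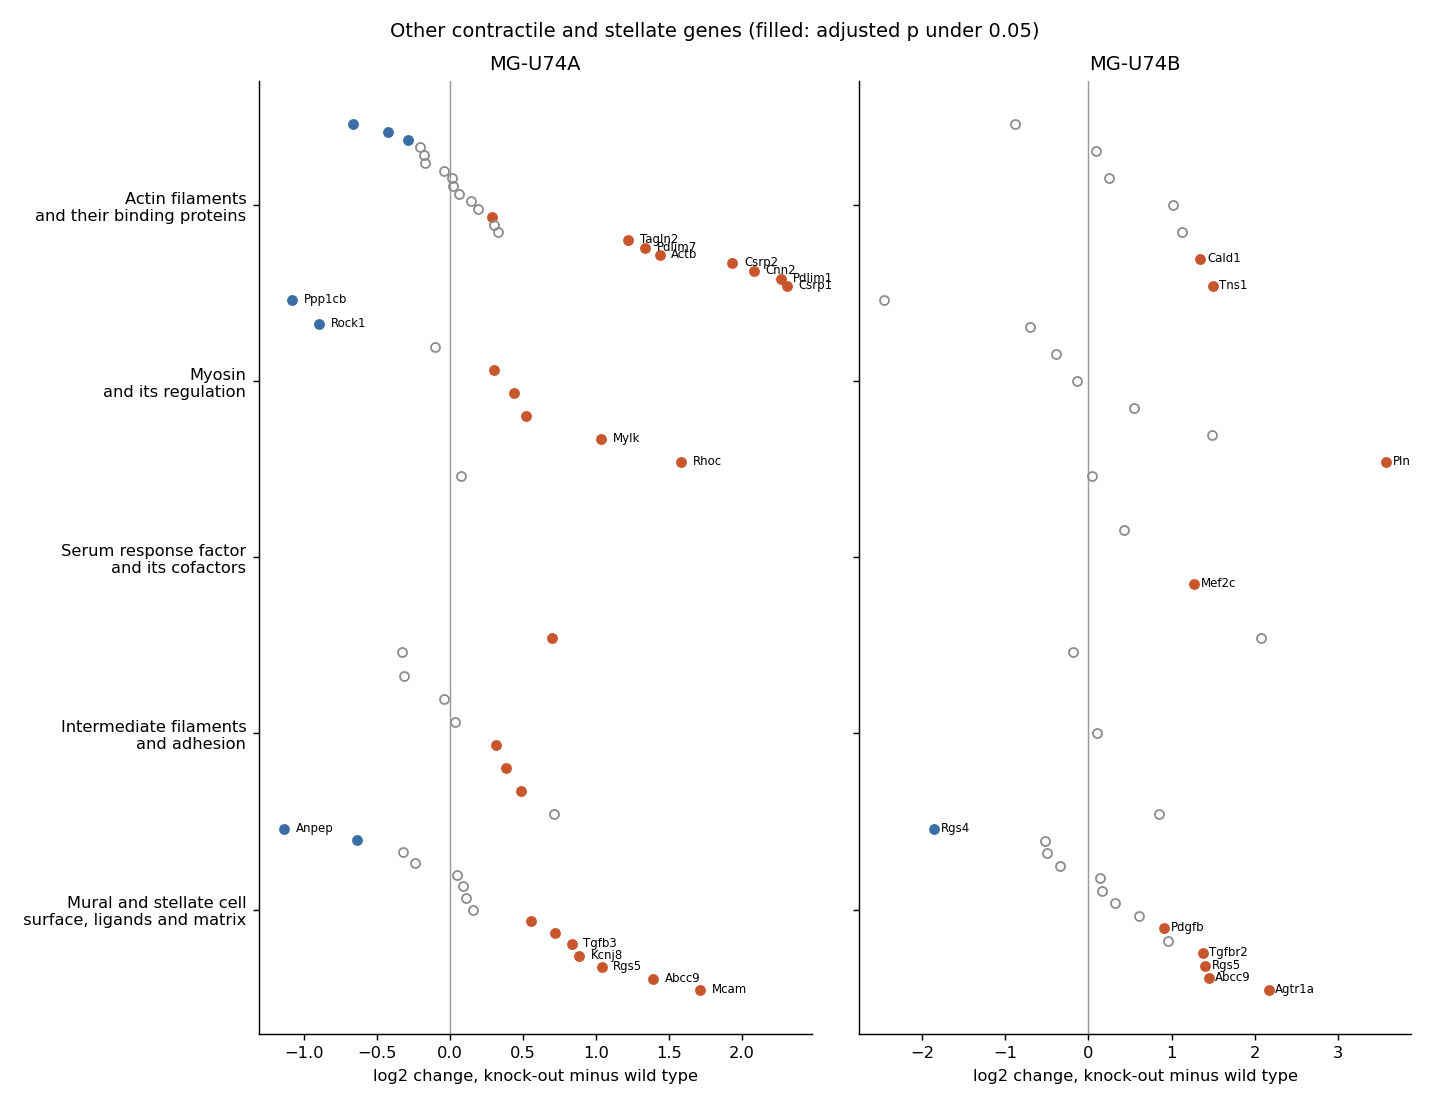
Log2 change, knock-out minus wild type (horizontal), of each tested gene of the further list in its 5 groups (vertical), on MG-U74A at left and MG-U74B at right; filled points passed an adjusted p under 0.05, orange for higher and blue for lower in knock-out, and open points did not. On MG-U74A 24 of 55 rose and 7 fell, and on MG-U74B 9 of 35 rose and 1 fell.

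Likeness to Acta2 was measured over its 4 values on MG-U74A, each centred on the wild type mean on the log2 scale. Because both wild type values were set to 0, the distances depend on the constant added. With 25 added, the smallest Euclidean distances over the 4 arrays belonged to Pvalb, the calcium buffer parvalbumin (0.299), Glycam1, a mucin of lymph node vessels (0.310), and the immunoglobulin genes Ighv1-54, Igkv14-111 and Ighg3 (0.379, 0.379 and 0.387). Pvalb read -86.4 and -98.5 in wild type and 536 and 586 in knock-out. Among the members Cnn1 came nearest, at rank 27 of 6740 probe sets with 1 symbol, followed by Thy1 at rank 121 and Tagln at rank 233. With a constant of 4% of the trimmed mean 1 of these 5 genes, Pvalb, was still among the 5 closest and Cnn1 had rank 13, and with 20% there were 2, Pvalb and Ighg3, and Cnn1 had rank 40. These settings were chosen after the data were seen, and apart from Pvalb the closest genes are not settled. Both wild type values of Pvalb were set to 0, as for Acta2, so the wild type arrays add nothing to their distance at any constant. Pvalb also passed the filter only through the knock-out arrays, and its place rests on the 2 knock-out values.

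**Figure D5:**
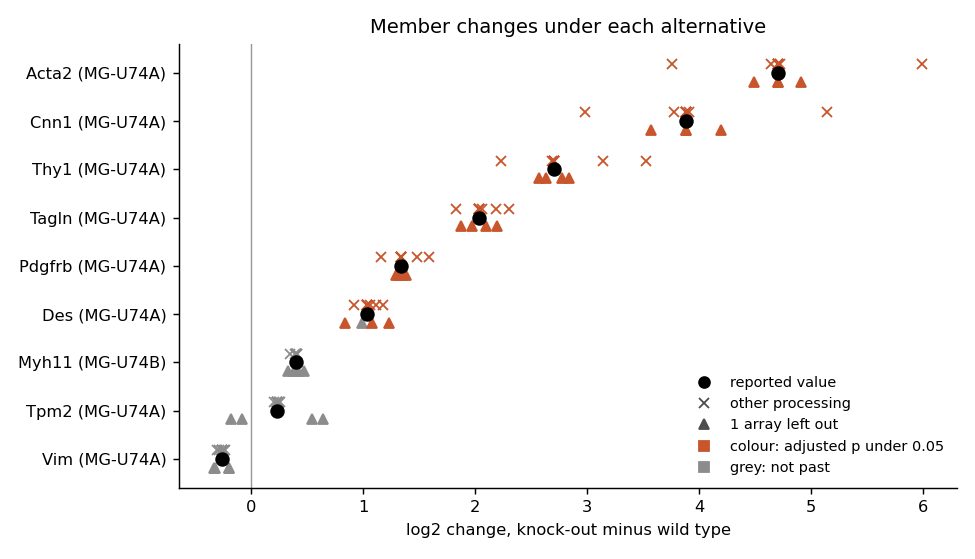
Log2 change, knock-out minus wild type (horizontal), of the 9 tested member probe sets as reported (black circles), with other processing (crosses) and with 1 array left out (triangles), orange where the adjusted p was under 0.05 and grey where it was not. Acta2 ran from 3.75 to 5.99 and stayed past the threshold in each, Des lost its call once, and Tpm2 ran from -0.19 to 0.64.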

How the data were processed

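The deposited value of each probe set was a linear intensity, scaled by the authors to a trimmed mean of 250 on every array, as the values show. No source used here names the software. Each array was brought to the average trimmed mean of its type (2% cut at each end), which changed values by at most 0.00726%. Values below 0 were set to 0 and 25 was added before log2. Probe sets with a mean under 62.5 and the 66 control probe sets of each type were left out. Each array type was fitted separately with limma 3.58.1 in R 4.3.3 (lmFit, eBayes with a trend, two-sided, Benjamini-Hochberg over 7517 and 7863 probe sets, threshold 0.05). Changes are knock-out minus wild type with their SE; the number of arrays limits the precision. Names come from the platform annotation, updated through RefSeq of GRCm38.p6. In lists the brightest tested probe set stood for a gene. Of each group the text names up to 4 genes past the threshold by size and those opposed to the rest. The members and lists were chosen with earlier results of these data known. CArG boxes with 1 mismatch were searched after the sequences were seen. The procedure was tested on simulated data. Same-numbered replicates did not deviate together (r over probe sets 0.0243 for MG-U74A, 0.0319 for MG-U74B), so no block was used. Alternatives changed the constant, floor, filter, scaling, trend and block and left out each array. The targeted gene's name and level are not reported here.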

Additional observations from a re-analysis of the deposited data

How the results depend on the processing

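The 6 member calls on MG-U74A held under all 13 alternatives but 1, which left 5 (Des, without wild type replicate 1); Tpm2, never past the threshold, changed sign with 1 array left out, within -0.19 to 0.64. With the replicate number as a block, 6 member probe sets passed on MG-U74A and 0 on MG-U74B (limma, 1 at an unadjusted p under 0.05), of 3626 and 1211 probe sets in all, and Mef2c on MG-U74A and Pdgfb on MG-U74B lost their calls. Leaving out each array, 2440 to 4211 probe sets passed on MG-U74A (3974 with all arrays), 18 to 32 of the further list (31), 1 to 934 on MG-U74B (1377) and 0 to 7 of the list there (10; 15 and 13 passed unadjusted where 0 did adjusted). On MG-U74B 764 probe sets and 5 of the list passed with no filter, and 639 probe sets with no variance trend. Allowing 1 mismatch raised the member promoters with a CArG box from 1 to 2, and of the 5 genes closest to Acta2, 1 and 2 were shared with the smaller and the larger constant. With 2 arrays a genotype and a single array type for most members, the spread is poorly known, and wild type values at or below 0 give Acta2, Cnn1 and Pln no measured fold.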

Other observations

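The array's Actb probe set 101578_f_at, of a type shared by related transcripts, rose from 1710 and 2044 to 5359 and 4863 on MG-U74A (1.44 ± 0.11, adjusted p = 0.00114, limma). The 3' control probe set of beta actin read 18898 and 18975 in wild type and 22976 and 19600 in knock-out on the same arrays. On MG-U74B this control read 47260.1 and 46698.5 in wild type and 75842.9 and 63033.3 in knock-out, so both knock-out arrays were the higher ones on each array type. Pdgfb changed on MG-U74B and did not pass on MG-U74A, and the difference between the array types was not tested.

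Transforming growth factor beta drives the activation of stellate cells. Tgfb1 rose by 0.56 ± 0.13 and Tgfb3 by 0.83 ± 0.15 on MG-U74A. Both calls were lost without wild type replicate 1 (adjusted p = 0.0985 and 0.0654) and without wild type replicate 2 (0.0950 and 0.0703), and that of Tgfb1 with no filter (0.0899). On MG-U74B the receptor gene Tgfbr2 rose from 811 and 891 to 2247 and 2239 (1.37 ± 0.11, adjusted p = 0.00658, limma), a call lost when either wild type array was left out. Tgfbr1 read 930 and 889 in wild type and 614 and 654 in knock-out there and did not pass (-0.50 ± 0.13, adjusted p = 0.0615). On MG-U74A both receptor genes were below the filter and overlapped between genotypes. Tgfbr2 read -0.90 and 15.1 in wild type and 32.2 and -0.70 in knock-out there, and Tgfbr1 55.5 and 17.3 against 42.2 and 59.4. Of the targets of this pathway, Ccn2, at 441 and 349 in wild type and 330 and 326 in knock-out on MG-U74A, did not pass (-0.24 ± 0.13, adjusted p = 0.188), while Ccn1 rose by 0.72 ± 0.13, a call lost without wild type replicate 1 (adjusted p = 0.0799). These genes were picked from the further list after their values were seen.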
